A study of Rattus norvegicus with 12 samples.

Results

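The 8 genes described here are the T cell receptor chains Cd3e, Cd3d and Cd3g, the coreceptor genes Cd4, Cd8a and Cd8b, the adhesion receptor Cd2 and the T-lineage transcription factor Lef1. They were listed by name, out of 32883 genes in the count tables, because their use by leukocytes of the rat liver looked unlike the T cell pattern their names imply. Their levels across cell classes and the strain folds of Cd4 therefore chose them (they were selected on these levels and folds) and are given as a description, without a test. The CD3 chains carry the signal of the T cell receptor. CD4 and CD8 bind the MHC molecule that presents the antigen, and CD8 is a dimer that can be made of 2 alpha chains (Cd8a) or of an alpha and a beta chain (Cd8b). CD2 binds CD48 on neighbouring cells, and LEF1 acts in Wnt signalling and in the programme of young T cells. In rats, unlike mice, antibodies to CD8 alpha and to CD4 have long been known to stain NK cells and macrophages as well.

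The libraries came from livers of healthy male rats of the Dark Agouti (DA) and Lewis (LEW) strains on standard diet, with no treatment. Total liver homogenate (TLH) cells were taken from 2 DA and 2 LEW rats after collagenase digestion, with an age of 8 to 10 weeks in the design text, and counted with 10x 3′ v2 chemistry. The immune-enriched libraries, 1 per strain, had extra washes and red cell depletion and used v3 chemistry, and the nuclei libraries, 2 per strain, were made from snap-frozen liver with v3 chemistry. A further 2 sections of Wistar liver were read on Visium slides. The names of the deposited matrices give other ages, 10 weeks for both TLH DA rats, 13 weeks for both TLH LEW rats and 9 weeks for the immune-enriched pair, and the study's methods give yet another. By those names age differed between the strains in TLH, where age and strain then cannot be told apart. The rat is the replicate in TLH cells and nuclei only, and strain, animal and library cannot be told apart in the immune-enriched pair.

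After the study's limits on UMIs and mitochondrial share, 23036 TLH cells, 3840 immune-enriched cells and 12525 nuclei remained, with median depths between 1542 and 5581 UMIs per library. Leukocytes were clustered with the 8 genes left out and named only from other markers. This gave 2367 TLH, 883 immune-enriched and 248 nuclear leukocytes in the 6 classes, 3498 of 39401 cells and nuclei. In the immune-enriched libraries the names were carried by the following genes. NK-like clusters were led by Xcl1, Gzma, Gzmk and Nkg7, Kupffer-like clusters by C1qa, Vsig4, Clec4f and Marco, the pDC-like (plasmacytoid dendritic) cluster by Siglech, Ptcra and Blnk, the B-like cluster by Cd79b and Ighm, and Lyz2 myeloid-like clusters by Lyz2, S100a4, Fn1 or MHC class II genes such as RT1-Da. T-like clusters were led by Cd40lg, Satb1, Trat1 and Bcl11b. The Lyz2 myeloid-like cluster with Xcr1 also had Clec9a and Clec10a, dendritic genes, among its leading genes, so its name is in doubt. Some names rested on 3 markers only: the TLH T-like cluster (Lat, Skap1 and Cd27), the TLH B-like cluster (Ighm, Cd79b and Fcmr), 1 TLH Kupffer-like cluster (Marco, Cd5l and Clec4f) and the largest Kupffer-like cluster of nuclei. That cluster, 104 of 177 nuclei, had Slc11a1, Cd163 and Hmox1 as its markers, none of them among its 10 leading genes. Nuclei held Kupffer-like (177), Lyz2 myeloid-like and NK-like classes and no T-like, pDC-like or B-like class. Hepatocyte-like cells of the same libraries, which should lack all 8 genes, gave the background. Levels are given in CPM, the UMIs of a gene per 1000000 UMIs of the class in that library, and the background reached 2.35 CPM at most where a UMI was seen, while a count of 0 in hepatocyte-like nuclei allows up to 5.05 CPM. Immune-enriched hepatocyte-like cells were far deeper (medians of 38748 and 37656 UMIs) than T-like cells (4169 and 4393). The same number of stray UMIs per cell gives a lower CPM in them, so this background can be too low for leukocytes. UMIs were counted at the 3′ end and not divided by gene length, so levels are compared within a gene and not between genes. The immune-enriched Lyz2 myeloid-like cluster with Ms4a7 held the 18 measured Kupffer markers at 32695.2 CPM in DA and 63460.5 in LEW. The Kupffer-like cluster led by C1qa held them at 64130.2 and 72552.1. The LEW immune-enriched library carried more hepatocyte RNA than the DA one, with the 28 measured hepatocyte markers at 18527 against 2020 CPM in T-like and 24709 against 2373 in NK-like cells, and its part in differences between that pair was not tested. Intervals are exact 95% Poisson or binomial intervals of 1 library and cover counting error only.

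The 3 CD3 genes lie together on rat chromosome 8, and the sequence before each start is shown because Cd3g was found with its neighbours in T-like cells and without them in pDC-like cells. The start of Cd3g lies 1601 bases from that of Cd3d on the opposite strand, and the start of Cd3e lies a further 26251 bases away. The 250 bases before each RefSeq start (GRCr8, a later build than the Rnor_6.0 of the counts) are written 5′ to 3′ on the gene's strand: Cd3g at chr8:54183919-54184168 (minus), Cd3d at chr8:54185269-54185518 (plus) and Cd3e at chr8:54211771-54212020 (minus). Capitals mark matches, on either strand, to 5 short motifs. They are CTTTG, the core bound by TCF and LEF factors, TGTGGT for RUNX factors, AGGAAG for ETS factors, AGATAA for factors of the Gata family, and the E-box CAGCTG.
Cd3g: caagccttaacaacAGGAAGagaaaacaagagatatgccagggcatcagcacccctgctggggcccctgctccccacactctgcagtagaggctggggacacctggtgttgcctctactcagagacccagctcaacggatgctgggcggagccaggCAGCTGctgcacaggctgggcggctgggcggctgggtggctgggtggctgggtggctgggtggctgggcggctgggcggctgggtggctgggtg
Cd3d: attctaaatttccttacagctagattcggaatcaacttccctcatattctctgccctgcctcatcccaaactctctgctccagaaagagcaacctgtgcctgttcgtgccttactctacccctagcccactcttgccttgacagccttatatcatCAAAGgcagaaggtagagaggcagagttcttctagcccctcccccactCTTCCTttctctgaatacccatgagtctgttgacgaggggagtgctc
Cd3e: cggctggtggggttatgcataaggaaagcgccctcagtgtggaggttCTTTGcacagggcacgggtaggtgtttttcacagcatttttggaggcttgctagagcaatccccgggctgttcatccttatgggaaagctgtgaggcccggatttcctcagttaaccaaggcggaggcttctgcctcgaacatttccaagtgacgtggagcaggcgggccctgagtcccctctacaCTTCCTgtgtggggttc
All 3 windows held the ETS letters, which 29.5% of 33469 promoter windows of the same length held. CTTTG stood before Cd3d and Cd3e and not before Cd3g, and 48.2% of windows held it. CAGCTG stood before Cd3g and not before the other two, and 12.0% of windows held it. TGTGGT and AGATAA, held by 14.5% and 10.3% of windows, stood before none of the 3. These matches describe the letters and do not show binding.

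In the immune-enriched libraries the CD3 chains marked T-like cells. Cd3e stood at 665 CPM in the 103 T-like cells of the DA library and at 795 in the 79 of the LEW library. Cd3d stood at 602 and 648, and Cd3g at 907 and 926. A UMI of at least 1 of the 3 chains was seen in 99 of 103 and 79 of 79 T-like cells, and UMIs of all 3 in 89 and 68. NK-like cells held far less, with Cd3e at 20.9 in the DA and 80.7 in the LEW library, and 3 of 128 and 6 of 59 NK-like cells held any CD3 UMI. Kupffer-like cells held no UMI of any CD3 chain in either library, which allows up to 4.60 CPM in the DA and 1.85 in the LEW library. Lef1 followed the CD3 chains, at 384 and 395 CPM in T-like cells and at no more than 30.9 in any other class.

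**Figure D1:**
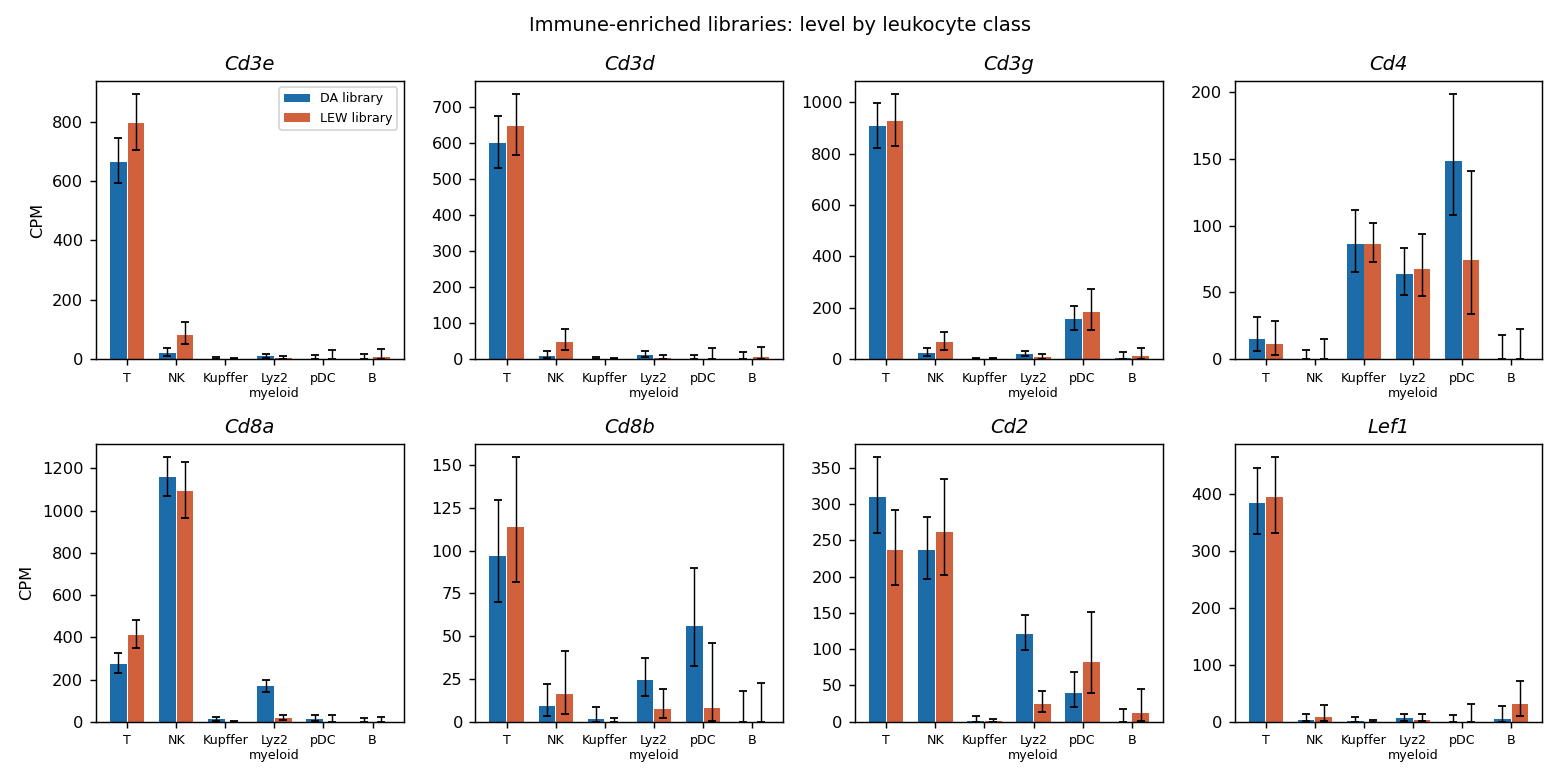
Level of each of the 8 genes (vertical axis, CPM, linear and starting at 0, scaled per panel) in 6 leukocyte classes of the immune-enriched DA (blue) and LEW (orange) libraries, 1 library per strain. Bars are sums over all cells of a class and error lines are exact 95% Poisson intervals. Cd3e, Cd3d and Lef1 stand high in T-like cells, Cd8a stands highest in NK-like cells (1159 and 1093), Cd4 stands in Kupffer-like, Lyz2 myeloid-like and pDC-like cells, and Cd3g has a second, lower bar in pDC-like cells (155 and 181).

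The pDC-like class held Cd3g alone among the CD3 chains. Cd3g reached 155 CPM (47 UMIs) in the 42 DA cells and 181 (22 UMIs) in the 16 LEW cells of the immune-enriched libraries. These levels were 0.171 and 0.196 of those in T-like cells of the same library. Cd3e and Cd3d had 0 UMIs in both, which allows up to 9.88 CPM in the DA and 24.7 in the LEW library. In cells, 20 of 42 (47.6%, 95% interval 32.0% to 63.6%) and 10 of 16 (62.5%, 35.4% to 84.8%) held a Cd3g UMI, and 10 and 7 held 2 or more. In TLH, too, Cd3g was the one CD3 chain of the pDC-like class. Cd3g in pDC-like cells stood at 119, 107, 93.0 and 90.3 CPM in DA-1, DA-2, LEW-1 and LEW-2, from 14, 14, 6 and 4 UMIs. Cd3e and Cd3d were at 0 in each of the 4, with limits of 25.6, 23.0, 46.5 and 67.7 CPM. The ratio of Cd3g to that in T-like cells was 0.407, 1.30, 0.207 and 0.168, above 1 in DA-2, whose T-like cells held little Cd3g. In T-like cells of the immune-enriched libraries Cd3g made up 41.7% and 39.1% of all CD3 UMIs, against 100% of 47 and of 22 CD3 UMIs in pDC-like cells. T-like markers were low in that class: the 30 measured T markers summed to 198 and 148 CPM in pDC-like cells, against 2198 and 2197 in T-like cells. In the immune-enriched pDC-like cells Cd8b gave 17 UMIs (56.0 CPM) in 13 of the 42 DA cells and 1 UMI in the LEW library, and no cell held both chains. In DA its share of 21 Cd8a and Cd8b UMIs was 81.0% (58.1% to 94.6%), against 26.0% in T-like cells. In TLH it gave 3, 4, 1 and 1 UMIs in DA-1, DA-2, LEW-1 and LEW-2. Cd4 and Cd3g were found together in 11 and 5 pDC-like cells. Ptcra, the pre-T cell receptor alpha chain and one of the markers used to name the class, is another gene of the receptor complex found in pDCs of other species.

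Cd8a stood higher in NK-like than in T-like cells. In the DA immune-enriched library Cd8a stood at 1159 CPM (1069 to 1254, 611 UMIs) in NK-like cells and at 275 (229 to 327, 125 UMIs) in T-like cells. In the LEW library it stood at 1093 (967 to 1231, 271 UMIs) in NK-like cells and at 412 (348 to 484, 148 UMIs) in T-like cells. The ratio of the 2 classes was 4.22 in DA and 2.65 in LEW, a description since this contrast chose the gene. The T-like UMIs came from 29 of 103 and 27 of 79 cells, so the ratio compares whole classes and not the cells that held Cd8a. A Cd8a UMI was found in 117 of 128 and 55 of 59 NK-like cells, at median depths of 4020 and 4027 UMIs. Hepatocyte-like cells, the background, held a Cd8a UMI in 5.71% and 3.27% of cells at median depths of 38748 and 37656 UMIs, or 1.5 and 0.908 CPM. Thinned to 1000 UMIs per cell, the expected share was 65.6% and 60.7% in NK-like and 16.9% and 23.2% in T-like cells. Of the NK-like cells with Cd8a, 115 and 49 held no CD3 UMI. The beta chain was nearly missing from the NK-like class as a whole, cells with CD3 UMIs included. There Cd8b gave 5 of 616 Cd8a and Cd8b UMIs in DA (0.812%, 0.264% to 1.88%, all in 1 cell) and 4 of 275 in LEW (1.45%, 0.398% to 3.68%, in 3 cells). In T-like cells the same share was 26.0% (44 of 169, 19.6% to 33.3%) and 21.7% (41 of 189, 16.0% to 28.3%).

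In T-like cells Cd8a went with CD3 and mostly with Cd8b. Of the 103 and 79 T-like cells, 29 and 27 held Cd8a, all with a CD3 UMI, and 22 in each library also held Cd8b. With 2 UMIs required for detection, the share of T-like cells with both CD8 chains fell from 21.4% and 27.8% to 10.7% and 11.4%. Cd4 was seen in 6 and 4 T-like cells, and none held both Cd4 and Cd8a. The remaining CD3 cells, 64 (62.1%) and 48 (60.8%), held a CD3 UMI and neither Cd4, Cd8a nor Cd8b. At 15.4 (6.18 to 31.7) and 11.1 (3.03 to 28.5) CPM, Cd4 was low in T-like cells, so that a T-like cell without a Cd4 UMI cannot be called CD4 negative at this depth. Of the 2 T-like clusters, the one led by Cd27 held more Cd8a (378 and 522) than the one led by Cd40lg (176 and 229).

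**Figure D2:**
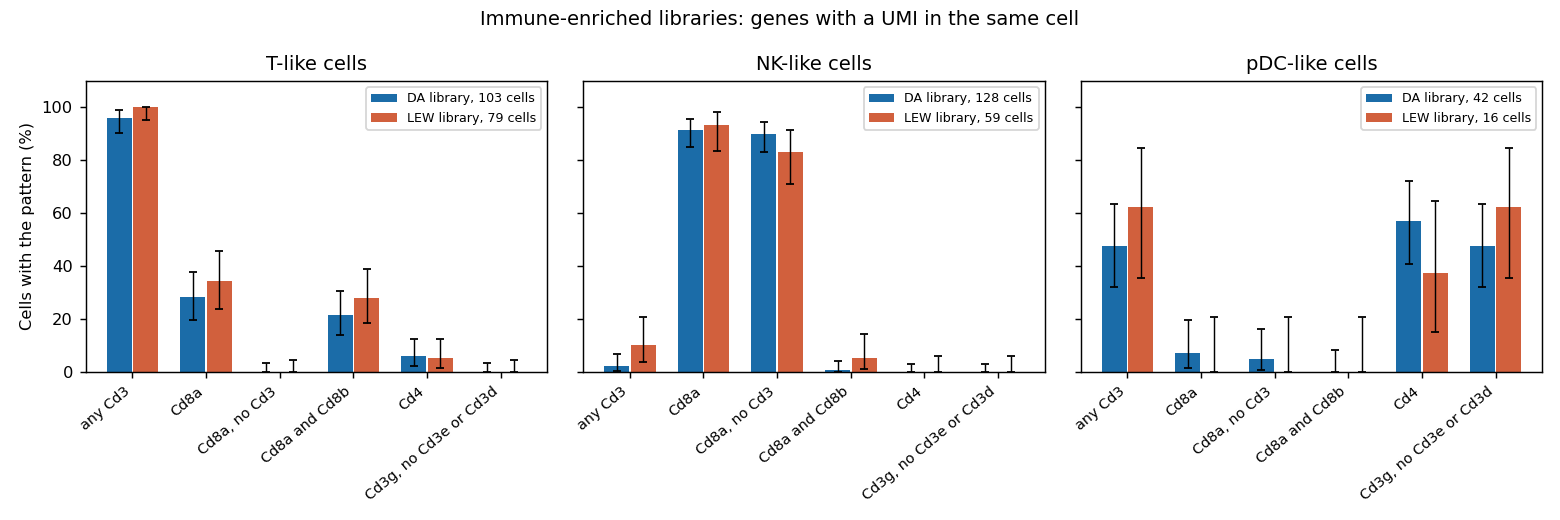
Share of T-like, NK-like and pDC-like cells of the immune-enriched libraries (vertical axis, percent) in which the named genes had a UMI in the same cell, for the DA (blue) and LEW (orange) library. Error lines are exact 95% binomial intervals, and the number of cells is given in each panel. NK-like cells hold Cd8a without CD3 (89.8% and 83.1%), T-like cells hold Cd8a together with Cd8b (21.4% and 27.8%), and pDC-like cells hold Cd3g without Cd3e or Cd3d (47.6% and 62.5%).

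In the shallower TLH libraries the NK-like cells of DA-1, DA-2, LEW-1 and LEW-2 held Cd8a at 168, 151, 292 and 323 CPM, and 36 of 146, 27 of 84, 50 of 97 and 32 of 62 cells had a UMI. T-like cells held 58.7, 233, 161 and 107 CPM. The NK-like level was above the T-like level in 3 of 4 rats, and the intervals overlapped in DA-2 and LEW-1. The exception was DA-2, whose 26 T-like cells also held the highest sum of the 29 measured NK markers (3444 CPM, against 948 to 1477 in the other 3 rats) and Cd3g at only 82.3. T-like cells of all 4 rats held more of the NK list than of the 30 measured T markers. The T markers stood at 595, 384, 749 and 805 CPM in DA-1, DA-2, LEW-1 and LEW-2. In immune-enriched T-like cells the NK list was the lower one, at 1276 and 890 against 2198 and 2197. The part of NK RNA or NK cells in the TLH T-like values was not tested. Cd8b gave 0 of 45, 0 of 34, 0 of 76 and 2 of 52 Cd8a and Cd8b UMIs in NK-like cells of the 4 rats, with upper interval bounds from 4.74% to 13.2%. In T-like cells it gave 2 of 9, 0 of 17, 7 of 22 and 1 of 9. The share was higher in T-like than in NK-like cells in 3 of 4 rats, with overlapping intervals in DA-1 and LEW-2, and DA-2 held no Cd8b UMI in either class. In nuclei, only 21 were NK-like, and Cd8a gave 2, 12, 0 and 2 UMIs in the 4 rats.

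In the immune-enriched libraries Cd4 stood higher in myeloid-like and pDC-like than in T-like cells. It stood at 85.9 CPM (64.9 to 112, 56 UMIs) in DA and 86.5 (72.8 to 102, 140 UMIs) in LEW Kupffer-like cells, the resident macrophages. Lyz2 myeloid-like cells held 64.1 (48.3 to 83.4) and 67.6 (47.4 to 93.6), and pDC-like cells 148 (108 to 198) and 74.2 (33.9 to 141). The intervals of these 3 classes overlapped between neighbours in the order of levels. T-like cells stood at 15.4 and 11.1, and the contrast is a description since it chose the gene. The Lyz2 myeloid-like class was not uniform. Its cluster with Mal held 121 and 134, that with Ms4a7 91.3 and 64.2, and that with Fn1 46.9 and 33.9. The cluster with Xcr1 held 33.6 and 8.26, in LEW from 1 UMI and below T-like cells. NK-like cells had 0 Cd4 UMIs, with limits of 5.69 and 12.1, and B-like cells had 0, with limits of 14.8 and 18.6. A Cd4 UMI was found in 28 of 47 and 76 of 103 Kupffer-like cells, in 37 of 108 and 27 of 83 Lyz2 myeloid-like cells and in 24 of 42 and 6 of 16 pDC-like cells. Kupffer-like cells were deep (medians of 12999 and 14881 UMIs). Thinned to 1000 UMIs per cell, the expected shares were 8.55% and 9.10% in Kupffer-like, 7.89% and 8.52% in Lyz2 myeloid-like, 16.1% and 6.71% in pDC-like and 1.77% and 1.28% in T-like cells. The shallower TLH libraries did not show that order in DA and held it in LEW by value only. Intervals overlapped between neighbours in the order of levels in all 4 rats. Lyz2 myeloid-like cells had 0, 0, 2 and 4 Cd4 UMIs in DA-1, DA-2, LEW-1 and LEW-2, pDC-like cells 1, 0, 1 and 2, and T-like cells 1, 0, 0 and 0, so that T-like cells of DA-1 stood at 8.39 CPM (0.212 to 46.7) against 4.66 (0.962 to 13.6) in its Kupffer-like cells.

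The strain folds of Cd4 pointed in opposite directions in cells and in nuclei. In TLH Kupffer-like cells Cd4 gave 3 UMIs of 294 cells in DA-1 and 6 of 366 in DA-2, against 18 of 228 in LEW-1 and 14 of 234 in LEW-2. In CPM these were 4.66 and 4.93 in DA and 20.6 and 17.9 in LEW, so both LEW rats were above both DA rats. The edgeR log2 fold change of LEW minus DA was 1.94 ± 0.52 (SE, n = 2 rats per strain), a description since the fold chose the gene. In nuclei Cd4 gave 8 and 20 UMIs in the 32 and 59 Kupffer-like nuclei of DA and 6 and 8 in the 35 and 51 of LEW. In CPM these were 164 (71.0 to 324) and 268 (163.5 to 413.5) in DA and 94.1 (34.5 to 205) and 108 (46.45 to 212) in LEW. Both LEW rats were thus below both DA rats by value, with a log2 fold change of -1.05 ± 0.51, but the intervals of the strains overlapped. The largest nuclear Kupffer-like cluster, named from 3 markers, held 4 and 14 of these UMIs in DA and 4 and 3 in LEW (174 and 344 against 90.1 and 78.0 CPM). In the cluster led by Cd5l and C1qa the order did not hold, with 193 and 265 CPM in DA and 0 and 380 in LEW, from 3, 6, 0 and 5 UMIs. Nor did it hold in the cluster led by Marco, with 1, 0, 2 and 0 UMIs in DA-1, DA-2, LEW-1 and LEW-2. In CPM, 1 of 3 clusters thus had both DA rats above both LEW rats. In the immune-enriched pair the 2 libraries had overlapping intervals. Every one of these sums but the immune-enriched ones rests on 20 UMIs or fewer. Cd4 passed the count filter of the fits through the LEW rats only in TLH and through the DA rats only in nuclei.

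Other measures moved with the Cd4 values. The 18 measured Kupffer markers summed to 26432 and 29828 CPM in TLH DA and to 48025 and 49727 in TLH LEW Kupffer-like cells, and to 25656 and 24884 in nuclei of DA against 18342 and 21022 in nuclei of LEW. The 28 hepatocyte markers went the other way, at 90163 and 107908 against 72179 and 81998 in TLH cells and 63173 and 55282 against 97951 and 71378 in nuclei. Per 10000 UMIs of the Kupffer list, Cd4 stood at 1.76 and 1.65 in TLH DA and 4.30 and 3.60 in TLH LEW, and at 64.1 and 108 in DA and 51.3 and 51.2 in LEW nuclei. The gap between the strains was smaller on that scale than in CPM in both TLH cells and nuclei. In the largest nuclear Kupffer-like cluster the list stood at 22043 and 20607 CPM in DA and 10116 and 15083 in LEW. Per UMI of the list, Cd4 in that cluster was higher in LEW-1 than in DA-1, so its order of DA over LEW did not hold on that scale. The part of hepatocyte RNA or of cluster make-up in the folds was not tested. For comparison, 7.19% of 6217 genes tested in TLH Kupffer-like cells and 4.41% of 1362 in Kupffer-like nuclei passed an adjusted p of 0.05.

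**Figure D3:**
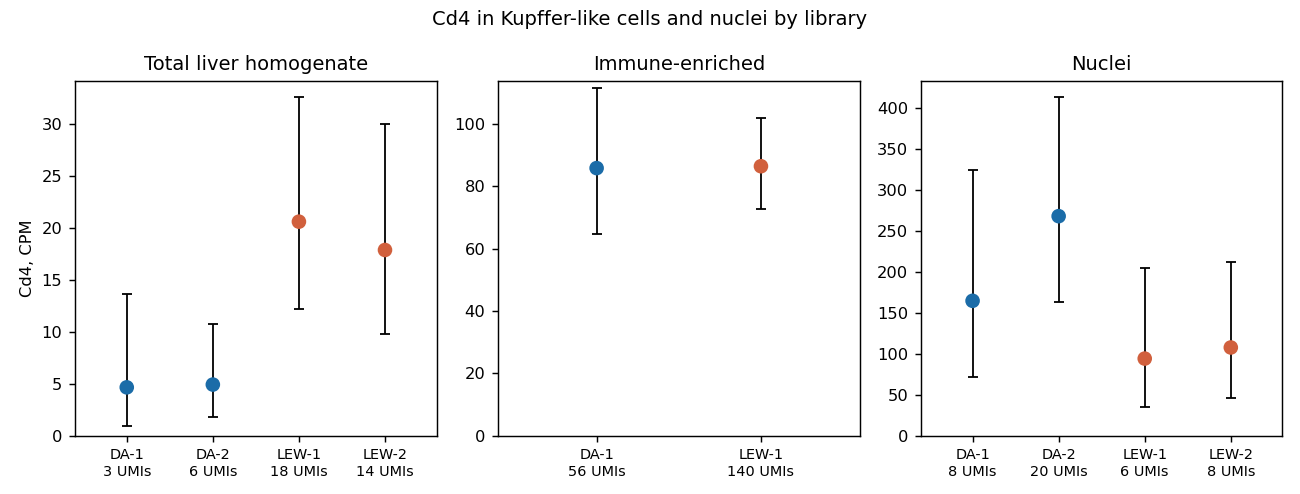
Cd4 level (vertical axis, CPM, linear from 0, scaled per panel) in Kupffer-like cells of each TLH and immune-enriched library and in Kupffer-like nuclei, DA in blue and LEW in orange. Points are sums over the class in 1 library, error lines are exact 95% Poisson intervals, and the UMI count is under each name. LEW stands above DA in TLH cells (20.6 and 17.9 against 4.66 and 4.93) and level with it in the immune-enriched pair. In nuclei LEW stands below DA by value (94.1 and 108 against 164 and 268), with overlapping intervals.

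Within the Kupffer-like class, Cd4 was found on both sides of the division by Marco, a scavenger receptor. In the immune-enriched libraries the cluster led by Marco and Cd5l held Cd4 at 46.9 and 67.9 CPM, and the cluster led by C1qa, Vsig4 and Clec4f held 105 and 99.4. The intervals of the 2 clusters overlapped in both libraries (22.5 to 86.2 against 76.8 to 140 in DA, 49.5 to 90.9 against 80.4 to 121 in LEW). In the 5 TLH Kupffer-like clusters no rat had more than 7 Cd4 UMIs.

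A Lyz2 myeloid-like cluster held Cd8a in the DA library. This cluster, with Mal, S100a4, Spn and S1pr5 among its leading genes and with Lyz2 at 8501 and 9684 and Cx3cr1 at 88.9 and 107 CPM, shares Cx3cr1, Spn and Nr4a1 with the patrolling monocytes known from other species. Cd8a stood at 838 CPM (701 to 994, 132 UMIs) in its 39 DA cells and at 46.8 (18.8 to 96.3, 7 UMIs) in its 42 LEW cells. A Cd8a UMI was found in 28 DA cells (71.8%, 55.1% to 85.0%), 27 of them with no CD3 UMI, against 4 LEW cells (9.52%, 2.66% to 22.6%). Cd8b was there too, at 114 (18 UMIs) and 26.7 (4 UMIs), and 8 DA cells and 0 LEW cells held both Cd8 chains. Nkg7, Gzma and Ncr1, defining NK genes, were at 0 in both libraries, and Klrd1 had 1 and 2 UMIs. All 14 Cd3g UMIs of the DA cluster came from 1 cell. Cd4 stood at 121 and 134, and 8 DA cells held both Cd4 and Cd8a. Alb, the hepatocyte marker, was higher in the LEW cells (7627 against 743).

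Cd8a counts of myeloid-like cells were lower in the other libraries. The TLH cluster led by Lyz2, S100a4, S100a6, Mal and Spn held 6 and 4 Cd8a UMIs in 25 and 13 cells of DA-1 and DA-2 (127 and 112 CPM), and 1 and 2 UMIs in 27 and 13 cells of LEW-1 and LEW-2 (15.1 and 58.0). Both DA rats were thus above both LEW rats, from few UMIs. NK-like cells of these rats held Cd8a at 168, 151, 292 and 323 CPM in the same order. Kupffer-like cells of TLH held 9, 7, 0 and 3 Cd8a UMIs in the same order of rats, and those of the immune-enriched libraries 7 in DA and 0 in LEW. Lyz2 myeloid-like nuclei held 7 Cd8a UMIs in DA-2 and 0 in the other 3 rats, and Kupffer-like nuclei held 0, 2, 1 and 0, so the nuclei did not hold an order of DA over LEW. Cd8a was under the count filter in the Lyz2 myeloid-like and Kupffer-like fits of TLH, Lyz2 myeloid-like nuclei had too few cells for a fit, and the immune-enriched contrast has 1 library per strain.

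**Figure D4:**
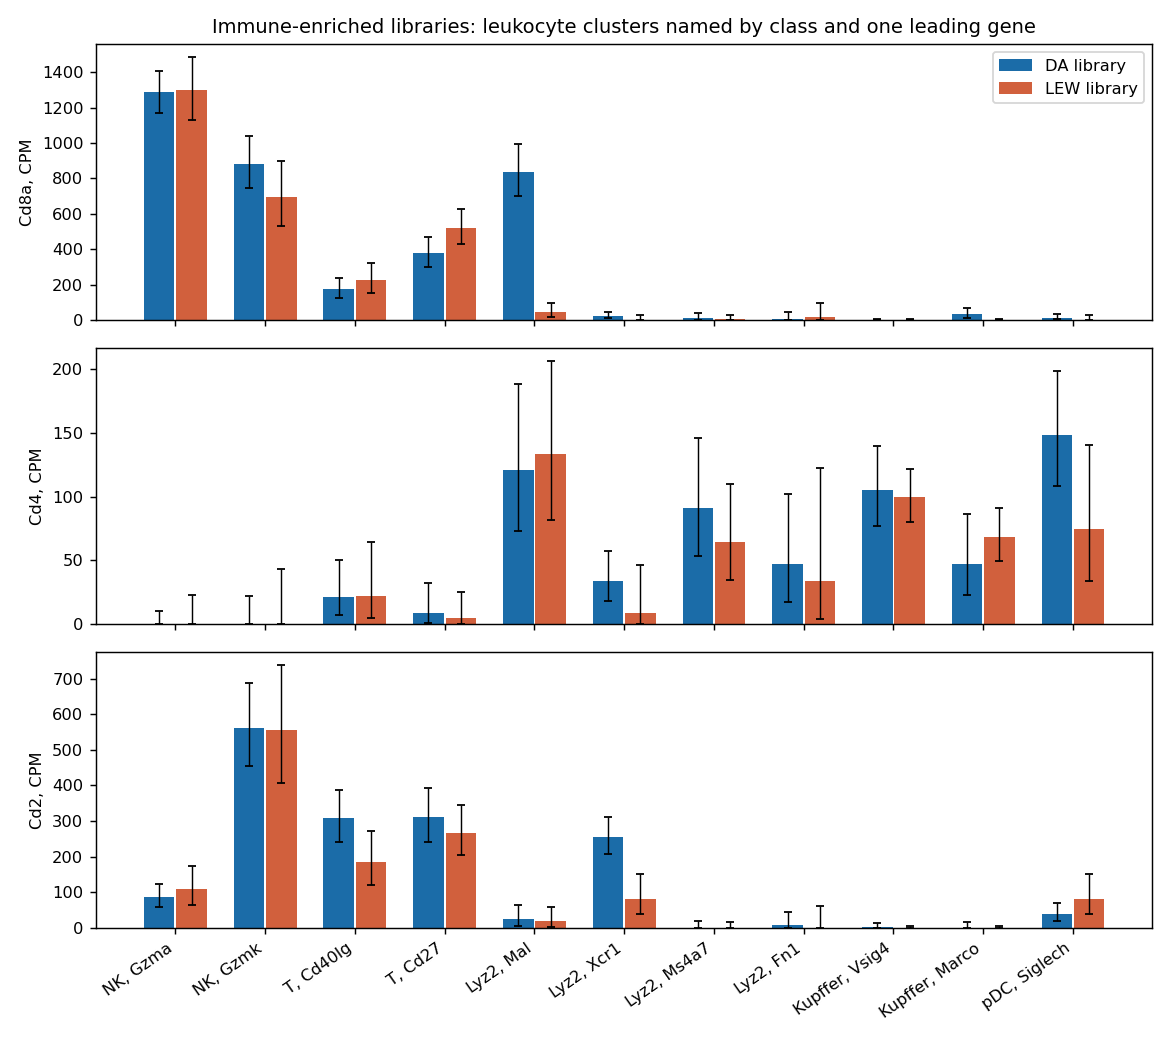
Level of Cd8a, Cd4 and Cd2 (vertical axes, CPM, linear from 0) in 11 leukocyte clusters of the immune-enriched libraries, each named by its class and one of its leading genes, with the B-like cluster left out. Bars are sums over a cluster in the DA (blue) or LEW (orange) library and error lines are exact 95% Poisson intervals. The Mal cluster of Lyz2 myeloid-like cells holds Cd8a at 838 in DA and 46.8 in LEW, Cd4 is at 0 in both NK-like clusters, and Cd2 is at 561 and 555 in the Gzmk NK-like cluster against 86.2 and 110 in the Gzma one.

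Cd2 was shared by T-like and NK-like cells. It stood at 310 and 236 CPM in T-like and at 237 and 262 in NK-like cells, with overlapping intervals in both immune-enriched libraries. Its level divided the NK-like class. In the cluster led by Gzmk and Gzmm, Cd2 reached 561 (453 to 687) and 555 (408 to 738) and was found in 31 of 40 and 14 of 21 cells. In the cluster led by Xcl1 and Gzma it stood at 86.2 (58.6 to 122) and 110 (65.4 to 174) and was found in 20 of 88 and 11 of 38 cells. Cd8a ran the other way between these clusters, at 883 and 696 in the Gzmk cluster and 1287 and 1299 in the Gzma cluster. A further Cd2 source was the Lyz2 myeloid-like cluster with Xcr1, Cst3 and MHC class II genes, at 256 and 82.6. That cluster had 7 markers of the Lyz2 list and 5 of the conventional dendritic cell list. In TLH, a cluster of 91 cells had 8 and 6 markers of these lists and was summed with the Lyz2 myeloid-like class (423 cells), but its leading genes leave that name in doubt. Among its 10 leading genes were Xcr1, Clec9a and Naaa of the dendritic list beside Cst3, S100a11 and RT1-Bb of the Lyz2 list. In that cluster Cd2 gave 3, 2, 0 and 0 UMIs in DA-1, DA-2, LEW-1 and LEW-2, Cd8a gave 1 UMI and the other 6 genes gave none. The strain fit of the class was not run without it. Cd48, which encodes the ligand of CD2, was found in all 6 classes, from 235 in DA T-like to 883 in LEW NK-like cells.

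Strain tests could be made for 5 of the other 7 genes, in T-like or NK-like cells, and not for Cd8b or Lef1. Across 6 fits (5 TLH classes and Kupffer-like nuclei, with at least 20 cells in every rat) there were 48 pairs of class and gene, and 8 passed the filter on low counts, Cd4 in both Kupffer-like fits included. Cd2 in NK-like cells and both Cd4 pairs passed it only through the strain where they were high. Of the 6 tests of genes other than Cd4, 0 passed an adjusted p of 0.05 (edgeR quasi-likelihood test with Benjamini-Hochberg adjustment) and 5 had an unadjusted p under 0.05. The test of Cd2 in NK-like cells is among the 6 and among the 5, and is not a free test for the reason given. The DESeq2 Wald test passed 0 of the 6, with 3 at an unadjusted p under 0.05 and no adjusted p for 4. Over all genes, 212 of 1056 in T-like and 478 of 2716 in NK-like cells had an unadjusted p under 0.05 by edgeR, and 91 and 159 by the DESeq2 Wald test. The share that passed the adjusted threshold was 0.852% of 1056 in T-like cells and 3.5% of 2716 in NK-like cells.

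The CD3 chains were higher in LEW than in DA T-like cells of TLH by value. Cd3e stood at 184 and 82.3 CPM in DA and 353 and 295 in LEW (log2 fold change 1.22 ± 0.40, adjusted p = 0.141, edgeR). Cd3d stood at 143 and 219 against 321 and 416 (1.09 ± 0.36, adjusted p = 0.141). Cd3g stood at 293 and 82.3 against 449 and 537 (1.30 ± 0.44, adjusted p = 0.143). Both LEW rats were above both DA rats for each chain, and all 3 differences missed the threshold. With 1 rat left out, the log2 fold change ranged from 0.87 (without DA-2) to 2.02 (without DA-1) for Cd3e, from 0.79 (without DA-2) to 2.61 (without DA-1) for Cd3g and from 0.79 (without DA-1) to 1.40 (without DA-2) for Cd3d. Over the alternatives the adjusted p ranged from 0.00959 to 0.435 for Cd3e, from 0.0263 to 0.603 for Cd3d and from 0.000766 to 0.351 for Cd3g. The low ends were reached without DA-1 for Cd3e and Cd3g, which leaves DA-2, with its high NK marker sum, as the only DA rat, and without DA-2 for Cd3d. The 30 measured T markers moved with them, at 595 and 384 in DA and 749 and 805 in LEW, and any CD3 UMI was found in 30 of 61 and 11 of 26 DA cells and in 26 of 33 and 24 of 28 LEW cells. The hepatocyte markers ran the other way, at 104930 and 140519 CPM in DA and 95711 and 100992 in LEW T-like cells. The part of hepatocyte RNA or of cells other than T cells in these values was not tested. In the immune-enriched pair Cd3e, Cd3d and Cd3g differed by less (665 and 795, 602 and 648, 907 and 926 in DA and LEW). Cd8a in T-like cells had a log2 fold change of 0.09 ± 0.60 (adjusted p = 0.964).

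In NK-like cells of TLH both LEW rats had more Cd8a than both DA rats, by a log2 fold change of 0.86 ± 0.26 (adjusted p = 0.0804, edgeR, and 0.0596 to 0.725 over the alternatives), which missed the threshold. The 29 measured NK markers differed alike, at 16433 and 15971 CPM in DA and 27913 and 31501 in LEW. Hepatocyte markers (116612 and 141256 against 111944 and 116472) and Kupffer markers (1747 and 873 against 507 and 685) were lower in both LEW rats than in both DA rats, and their part in the Cd8a and Cd2 values was not tested. Per 10000 UMIs of that list Cd8a stood at 102 and 94.8 in DA and 105 and 103 in LEW. Cd2 had a log2 fold change of 1.75 ± 0.57 (adjusted p = 0.115, edgeR), from 5, 4, 12 and 15 UMIs, and of 1.23 to 2.35 with a rat left out. It passed the count filter only through the LEW rats, where it was high, so this p-value is a description and not a free test. Per 10000 list UMIs Cd2 stood at 11.4 and 11.2 in DA and 16.5 and 30.8 in LEW, with 31.7 and 32.0 in the immune-enriched pair.

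**Figure D5:**
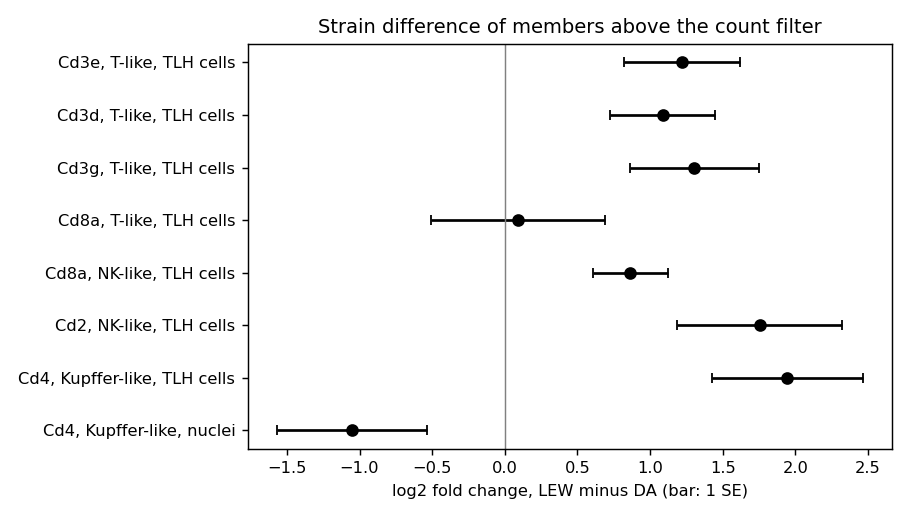
Log2 fold change of LEW minus DA (horizontal axis) for the 8 pairs of gene and class above the count filter, from edgeR fits on UMI sums of 2 rats per strain. Points are fitted values and bars are 1 SE. The 3 CD3 chains lie between 1.09 and 1.30, Cd8a lies near 0 in T-like cells and at 0.86 in NK-like cells, and Cd4 lies at 1.94 in TLH Kupffer-like cells and at -1.05 in Kupffer-like nuclei.

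The genes that work with the 8 were read from 3 lists. Of 25 measured genes of T cell receptor signalling, 15 reached 50 CPM in both immune-enriched libraries in T-like cells, 13 in NK-like, 7 in Lyz2 myeloid-like, 6 in Kupffer-like, 4 in pDC-like and 3 in B-like cells. The kinase genes that bind the coreceptors and the receptor chains were shared with NK-like cells. Lck, which docks on CD4 and CD8, stood at 266 and 300 in T-like and 309 and 298 in NK-like cells. Cd247, the zeta chain, stood at 257 and 220 against 249 and 230, and Zap70 at 54.9 and 52.8 against 131 and 121. Kupffer-like cells, which held Cd4, had Lck at 7.67 and 8.65 and no UMI of Cd247 or Zap70. Lat, the adaptor below Zap70, was found in pDC-like cells at 65.9 and 33.0. Trat1, Themis and Cd28 stayed with T-like cells (at most 8.07 elsewhere).

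Of 15 factors that set T and NK lineages, 5 reached that level in T-like and 4 in NK-like cells. Bcl11b stood at 134 and 111 in T-like against 26.6 and 28.2 in NK-like cells, and Tcf7, the partner of Lef1, at 65.9 and 52.8 against 5.69 and 4.03. Runx3 and Tbx21, factors of cytotoxic cells, stood at 96.7 and 68.6, and at 296 and 339, in NK-like cells. Eomes, on this list and on the NK marker list, was at only 0 and 4.03 there. Gata3 was higher in NK-like (138.5 and 101) than in T-like cells (85.6 and 69.5). So was Tox, at 56.9 and 48.4 against 37.3 and 36.15. Zbtb7b, the factor of CD4 T cells, was at 9.88 or less in every class and library. Of 11 partner genes, 3 to 5 reached 50 CPM in each class. Across the TLH and nuclear fits 1 gene of the 3 lists passed the test, in TLH Kupffer-like cells, where 8 signalling genes, 7 partner genes and 1 lineage factor were tested and 7.19% of all genes passed. Ptprc, which encodes CD45, was at 88.6 and 103 CPM in DA and 170 and 144 in LEW Kupffer-like cells of TLH, a log2 fold change of 0.68 ± 0.20 (adjusted p = 0.0335, edgeR). Detection of Ptprc had also helped to choose the clusters that were clustered again. The sum of Kupffer markers was higher in the same LEW cells (48025 and 49727 against 26432 and 29828) and that of hepatocyte markers lower (72179 and 81998 against 90163 and 107908), and their part in the Ptprc difference was not tested. The share of genes passed was 2.21% of 3127 in Lyz2 myeloid-like and 0.43% of 1162 in B-like cells, where no gene of the 3 lists passed.

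Over the 36 sums of class and library of the immune-enriched and TLH cells, the pattern of each coreceptor was compared with 3434 genes by Pearson correlation of log2(CPM + 10). These points share libraries, depth and the clustering, so the values are a description. The genes nearest to Cd8a were Zap70 (0.929), AABR07027872.1 (0.929), Sh2d2a (0.928), Klrd1 (0.927) and Txk (0.920). Nearest to Cd3e were Cd3d (0.981), Bcl11b (0.952), Fam189b (0.936), AABR07017902.1 (0.910) and Skap1 (0.903). Nearest to Cd4 were AABR07006310.1 (0.882), Myl6 (0.881), Prcp (0.835), Tagln2 (0.799) and Clta (0.798). Nearest to Cd8b were Cd3g (0.852), Eef1b2 (0.773), Lgals1 (0.747), Rpl15 (0.724) and Cd27 (0.702).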

How the data were processed

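The deposited files hold raw UMI counts per gene and barcode; per the labels and the study's methods the authors made them with Cell Ranger 3.1.0 (Space Ranger 1.1.0 for sections) on a custom Rnor_6.0 reference. The TLH and immune-enriched matrices were joined to gene names by row, from the nuclei gene list. Cells were kept by the study's limits (TLH at least 1500 UMIs in DA-1 and 2000 in the other rats, with at most 20% to 40% mitochondrial UMIs, immune-enriched 1000 and 50%, nuclei 1000 and 10%). TLH libraries held 61441846 to 92484173 UMIs, immune-enriched 48255870 and 60005133, and nuclei 8039397 to 15186970. For both LEW rats 2000 UMIs replaced the stated 1500, because this returned the study's number of cells.

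Cells were normalized (sctransform 0.4.2), integrated by Harmony and clustered on 20 neighbours without the 8 genes. Clusters named as leukocytes, and those where 20% of cells or more had a Ptprc UMI, went into a second clustering (resolution 1). A cluster was named from at least 3 markers of 1 list among its 30 leading genes with a UMI in 25% of cells, or, if left without a name, 10%. The limits of 20% and 10% were set after the data were seen. The 8 genes, the marker lists and the 3 gene lists were chosen with earlier results of these data known. Named genes were the 8, list genes past the threshold and the 5 nearest genes of Cd4, Cd8a, Cd8b and Cd3e, and other list genes and clusters in the text were chosen after their values were seen.

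UMIs were summed per rat and class and tested with edgeR 4.0.16 (quasi-likelihood, TMM, filterByExpr, Benjamini-Hochberg at 0.05), or with DESeq2 1.42.0 as an alternative. Libraries are taken as 1 rat each, and p-values measure the spread between them. On simulated counts with 200 genes changed by a log2 of 2, the fit recovered 83.5% in T-like (1056 genes run), 80.5% in NK-like (2716), 88.5% in Kupffer-like (6217), 87.5% in Lyz2 myeloid-like (3127) and 80.5% in B-like cells (1162) and 79.5% in Kupffer-like nuclei (1362). It made 8, 4, 18, 23, 8 and 3 false calls there, and 0, 2, 3, 5, 1 and 0 calls with no gene changed. Thinned shares are expected values at 1000 UMIs per cell. Scrublet called 18 of 3840, 62 of 12525 and 7 of 23036 barcodes as doublets, too few to rely on, so no doublets were removed, and leaving out the 6% of highest scores was an alternative. Nuclei libraries shared 1 to 6 barcodes per pair. RefSeq promoters were found for 6 of the 8 genes.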

Additional observations from a re-analysis of the deposited data

Results flagged for a closer look

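The log2 fold change of Cd4, LEW minus DA, was 1.94 in TLH Kupffer-like cells and -1.05 in Kupffer-like nuclei. By value, both LEW rats were on opposite sides of both DA rats in the 2 kinds of library. In nuclei the intervals of the strains overlapped. The difference between cells and nuclei was not tested.

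The Visium sections are in no comparison above. Their 2437 (section A) and 2404 (section B) spots can each hold several cells, and these counts were set only against the 3 counts that a count of 0 allows. Cd8a gave 86 and 94 UMIs, or 2.5 and 2.70 CPM, next to 1.5 and 0.908 CPM in hepatocyte-like cells of the immune-enriched libraries, and its background in sections was not tested. Cd3e gave 10 and 25 UMIs, Cd3d 14 and 8, Cd3g 7 and 7, Cd2 13 and 13 and Lef1 6 and 4. Cd8b gave 7 UMIs on section B and 2 on section A, and Cd4 gave 0 and 3, within that limit.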

How the results depend on the processing

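Levels of the 8 genes seldom left their intervals or spread (872 of 898 recomputed values stayed), and those of Cd8a in NK-like, Cd4 in Kupffer-like, Cd3g in pDC-like and Cd3e in T-like cells stayed in every alternative that gave a value. That count overstates how far the levels were checked. Means with a rat left out could not fail, since dropping 1 value moves a mean by less than its SD. The called doublets left out in another alternative were few. The strain fold of Cd4 stayed within 1 SE in all alternatives, at 1.86 to 2.03 in TLH Kupffer-like cells and -1.33 to -0.66 in nuclei. With 2 UMIs as detection, NK-like cells with Cd8a and no CD3 were 67.8% of the LEW class in place of 83.1%, and 15 of 90 recomputed shares of cells with gene pairs left their intervals, all of them under this setting. Cd8a in T-like cells had log2 fold changes of -0.013 with DESeq2 and of -0.71 to 1.25 with a rat left out (-0.71 without DA-1, -0.26 without LEW-1), so its sign turned. Thinning to 1000 UMIs moved 39 of 69 shares of cells out of their intervals. The numbers of genes past the threshold depended on the setting. In T-like cells 9 genes became 20 with DESeq2, 26 with no filter on low counts, 15 with the stricter cell filter and 16 to 151 with a rat left out, with 151 without DA-1, 65 without DA-2, 16 without LEW-1 and 17 without LEW-2. In NK-like cells 95 became 25 with DESeq2 and 11 to 174 (11 without LEW-1, 174 without DA-1). In TLH Kupffer-like cells 447 became 130 with DESeq2, 296 with the stricter cell filter and 248 to 705 (705 without DA-1, 253 without LEW-1, 248 without LEW-2). In Lyz2 myeloid-like cells 69 became 174 with no filter and 107 to 182 (107 without LEW-2, 133 without LEW-1, 150 without DA-2, 182 without DA-1). In B-like cells 5 became 11 with no filter, 2 with the stricter cell filter, 21 with the 8 genes in the clustering, 12 with the highest 6% of Scrublet scores left out (chosen after seeing the data) and 0 to 69 (0 without LEW-2, 9 without DA-2, 69 without DA-1). In Kupffer-like nuclei 60 became 24 with DESeq2, 7 with the stricter cell filter, 91 with the highest 6% of scores left out and 38 to 113 (38 without LEW-1, 39 without DA-2, 113 without LEW-2). Where an arm had 1 rat, it was assumed to vary like the others. The cause was not tested. With the replicate number as a block the counts were 59 in T-like, 6 in NK-like, 114 in TLH Kupffer-like, 68 in Lyz2 myeloid-like and 6 in B-like cells and 123 in Kupffer-like nuclei, and the adjusted p of Cd3e and Cd3g became 0.0464 and 0.0110. Nothing in the labels pairs the rats, and the correlation of same-numbered rats was between -0.114 and 0.134. For B-like cells, crossed numbers, added after seeing the data, gave 21. The stricter filter gave no strain fold for Cd8a in T-like or Cd2 in NK-like cells or for Cd4 in nuclei. Depth limits the strain folds of Cd4, which rest on 3 to 20 UMIs per rat in TLH and nuclear Kupffer-like cells.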
